A study of Homo sapiens with 26 samples.

Results

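Tissue factor, encoded by F3, starts blood clotting, and the plasminogen system dissolves the clot. The 9 genes described here belong to those systems or stand close to them. They are F3, its inhibitors TFPI and TFPI2, the urokinase genes PLAU and PLAUR, PLAT, the protease inhibitor gene SERPINA1 and the thrombin receptor genes THBD and F2R. They were chosen by name, after F3 had been seen lower in the group WT8 and SERPINA1 lower with compound 40. They hold 23 of the 41091 probe sets that are assigned to a single gene on the array. Of these, 19 passed the filter on dim signals, and they measured 8 of the 9 genes. The missing gene was PLAT, whose only such probe set lay at the floor of 20 on all 24 replicated arrays.

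The arrays came from 786-O, a human clear cell renal carcinoma line. This line is known to lack working VHL, the protein that marks hypoxia-inducible factors for destruction, and it makes HIF-2a (encoded by EPAS1) as its main such factor. Each of 8 titles stands for 3 arrays. By elimination from the series text, Blk was taken as untreated cells and DMSO as vehicle. The numbers 40, 41, 76 and 77 were taken as the 4 compounds found in a screen for HIF-2a inhibitors. Compound structures, doses and times were not given in the sources used here, nor was the meaning of PRC3, WT8 and the single arrays pTR and pTV. In the literature on this line, PRC3 and WT8 are names of sublines with an empty vector and with reintroduced VHL. The labels do not state this, so the groups are called by their titles. Whether the 3 arrays of a group were separate cultures is not stated either, so a p-value reflects array-to-array spread alone, which may be technical.

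Values are normalized signals, on a linear scale with a floor of 20, and a log2 change is the difference of mean log2 signals with its standard error (SE). Folds are taken from these log2 means, so they can differ from the ratio of mean signals. Where a gene has several probe sets assigned to it alone, the one with the highest mean log2 signal stands for the gene. A difference was called at an adjusted p under 0.05 from limma, with Benjamini-Hochberg adjustment over all 35013 probe sets kept. With 3 arrays a group, arrays that do not overlap are common. Between DMSO and compounds 41, 76 and 77 this held for 23.3%, 19.4% and 14.3% of all genes tested. It held for 6% in DMSO against Blk, 16.3% in PRC3 against Blk and 18.8% in WT8 against PRC3. For compound 40 against DMSO it was 15.5%. Among pairs of compounds it was 13.4% (41 against 76), 16.8% (41 against 77) and 14.9% (76 against 77). Changes in WT8 against PRC3 and in compound 40 against DMSO chose the members, so they are given without a test. All comparisons with DMSO share the arrays of the compound 40 contrast, and those with PRC3 share arrays with the WT8 contrast.

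Tissue factor is a membrane protein that binds factor VII and thereby starts the clotting cascade. TFPI, the tissue factor pathway inhibitor, blocks that complex, and TFPI2 is a related inhibitor of plasmin and other proteases. Urokinase (PLAU), held at the cell surface by its receptor PLAUR, and tissue plasminogen activator (PLAT) turn plasminogen into plasmin. SERPINA1 encodes alpha-1-antitrypsin, a secreted inhibitor of neutrophil elastase made mainly by the liver. Thrombin acts on cells through F2R, its main signalling receptor, and binds thrombomodulin (THBD), which turns it towards activating protein C.

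RefSeq promoter sequences of the GRCh38.p14 build, covering 250 bases before to 50 after a gene's start, were found for 6 of the 9 members. PLAU and SERPINA1 had 2 starts each. The promoters were searched on both strands for ACGTG and GCGTG, cores of the hypoxia response element, for TGANTCA, the AP-1 motif, and for TGACNNNGC, the core of the antioxidant response element. The windows below are shown because they surround matches upstream of the 2 genes that chose the members and of the inhibitor and urokinase genes described beside them. The upstream GCGTG match of PLAUR is named below without its window. They run 5′ to 3′ on the gene's strand and the matched letters are in capitals.
F3, chr1:94541965-94541992, minus strand: gtggcgcggtTGAATCActggggtgagt
F3, chr1:94541952-94541979, minus strand: atcactggggTGAGTCAtcccttgcagg
TFPI2, chr7:93890823-93890850, minus strand: tccccgtgcaTGAATCAgccacccctca
PLAUR, chr19:43670338-43670365, minus strand: cacaactccaTGAGTCAgggccgagcca
PLAU, first start, chr10:73910433-73910460, plus strand: ccttatcaaGCCCTGTCAaaaacggact
PLAU, second start, chr10:73911008-73911035, plus strand: cgttgcggaagCACGCggggtccgggtc
SERPINA1, first start, chr14:94390634-94390661, minus strand: tgcactgcctcCACGCagcaaccctcag

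The F3 promoter held 2 matches to TGANTCA, which 7.71% of all 35114 promoters of this length hold at least once. TFPI2 and PLAUR held 1 each. The capitals in the first PLAU window are TGACNNNGC read on the other strand, a motif that 13.3% of promoters hold. Those of the second PLAU window and of SERPINA1 are GCGTG read on the other strand, found in 36.5% of promoters. PLAUR also held 1 GCGTG and 1 ACGTG, and 21.4% of promoters hold the latter. Neither the TFPI promoter nor the second SERPINA1 promoter held any of the 4 motifs. A match describes letters only, and its absence says only that these letters are not in this window.

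No pair of arrays correlated above 0.984. Of 10 markers fixed for renal tubule and clear cell carcinoma, PAX8, CA12, VIM, KRT8, KRT18 and CDH2 were well above the floor on every array. PAX2 ranged from 22.1 to 177, whereas CDH16, LRP2 and CUBN reached at most 36.9. VWF of endothelium and PTPRC and CD14 of leukocytes lay at the floor on all 26 arrays. Other markers of those and of other cells did not: PECAM1 ranged from 45.5 to 117, TEK reached 75.0 and COL1A1 of fibroblasts ranged from 30.3 to 145. The 5 fibroblast markers summed to 270.1 to 312 in WT8 and 201 to 226 in PRC3, and to 115 to 208 with compound 40 and 235 to 286 in DMSO. Their part in the differences between these groups was not tested. The 5 hepatocyte markers summed to between 100.0 and 153 against a floor sum of 100. Replicates 2 and 3 of compound 40 had a mean deposited signal of 166 and 174 against 143 on the other arrays. WT8 replicate 3 had an ACTB 3'/5' ratio of 2.37, against at most 1.39 elsewhere, a sign of more degraded RNA. For the probe sets that stand for the members, log2 changes in WT8 against PRC3 and in compound 40 against DMSO are given with and without these 3 arrays. Changes in other probe sets, and of compound 40 against other groups, are given with them only. EPAS1 itself had group means from 320 with compound 76 to 727 in PRC3, and VHL from 49.3 with compound 40 to 65.4 in Blk. The VHL probe set did not set WT8 (42.0 to 68.0) apart from PRC3 (39.6 to 83.8). Only this dim probe set was read for VHL, and whether it would detect an introduced VHL transcript was not tested.

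F3 was low in WT8 and present everywhere else among the 8 groups. The 3 WT8 arrays read 20, 20 and 67.7, and the first 2 of these are the floor. In PRC3 they read 282, 321 and 584. No WT8 array reached any PRC3 array, and F3 was at least 12.5-fold lower in WT8 (log2 change -3.64, SE 0.42), a lower bound because of the arrays at the floor. The 67.7 came from replicate 3, the array with the raised ACTB ratio. Without it both remaining WT8 arrays lay at the floor, and F3 was at least 18.8-fold lower than in PRC3. These values chose F3 and carry no test.

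Mean F3 signals were 396 ± 165 (SD, n = 3) in PRC3, 317 ± 37.7 in Blk, 263 ± 75.8 with compound 41, 240 ± 97.1 with compound 77 and 201 ± 46.2 in DMSO. They were 149 ± 91.5 with compound 76, 136 ± 28.5 with compound 40 and 35.9 ± 27.5 in WT8. Every neighbouring pair in this order overlapped except compound 40 and WT8. Groups farther apart in the order need not overlap, and all 3 compound 40 arrays lay below every Blk and PRC3 array.

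The vehicle arrays read 166, 253 and 183 for F3 and the untreated arrays 279, 354 and 319. DMSO lay below Blk on every array, by 1.60-fold (log2 change -0.68, SE 0.42), and the difference was not called (limma, unadjusted p = 0.117, adjusted p = 1). Compound 76 gave 111, 253 and 82.6, of which 1 array was level with the highest DMSO array and the other 2 lay below all of DMSO. Its log2 change against DMSO was -0.58 (SE 0.42, adjusted p = 0.728 by limma), with a 95% interval from -1.44 to 0.28. Compound 41 (311, 302 and 175) and compound 77 (190, 351.4 and 177) overlapped DMSO, with log2 changes of 0.36 (adjusted p = 0.81) and 0.21 (adjusted p = 0.973) by limma. F3 was not called with compound 76 against Blk either (log2 change -1.26, adjusted p = 0.149 by limma). Compound 40 read 169, 125 and 115, a log2 change of -0.56 (SE 0.42) against DMSO. Without its replicates 2 and 3 that change was -0.23.

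**Figure D1:**
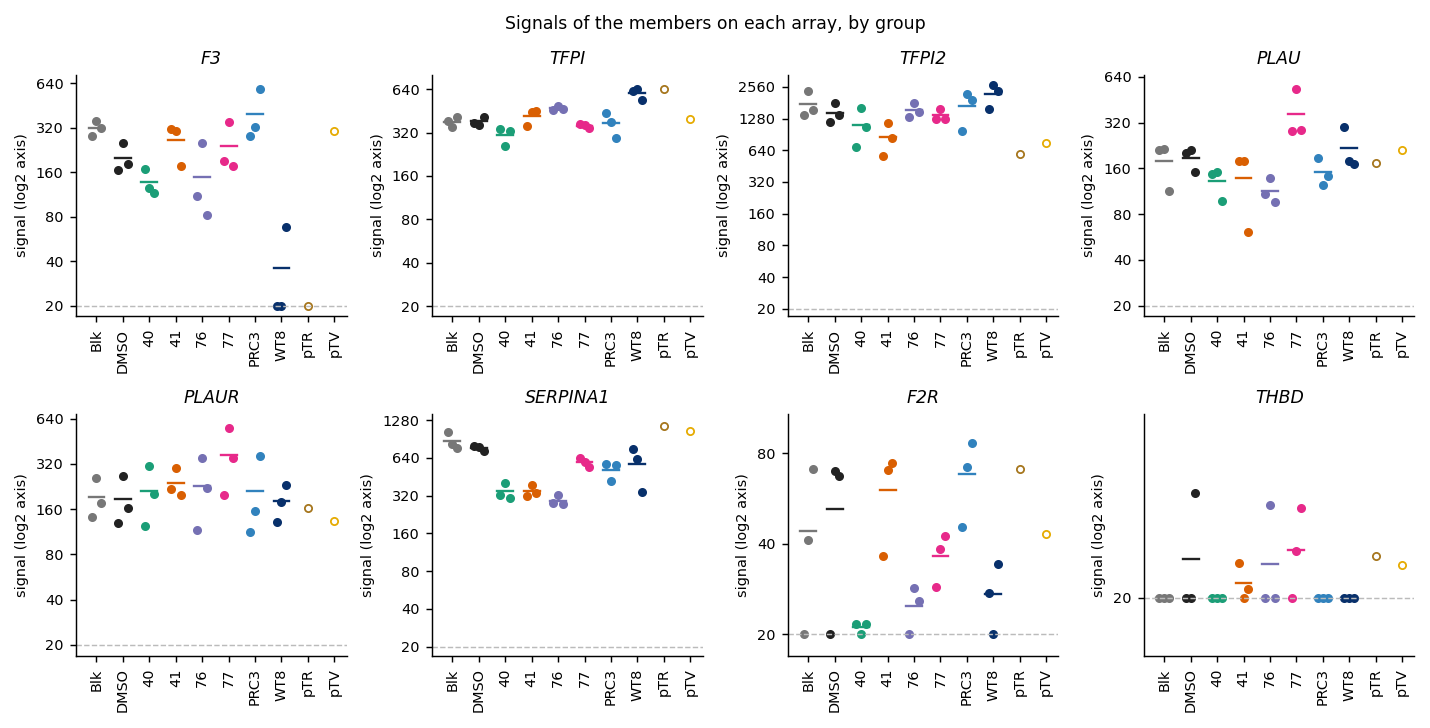
Normalized signal of the measured members on each of the 26 arrays, on a log2 axis with the floor of 20 dashed, by group; each point is 1 array (open for the single arrays) and the short bars are group means. F3 lies at the floor on 2 WT8 arrays and pTR, at 67.7 on the remaining WT8 array and at 82.6 or more on every other array. SERPINA1 with compounds 40, 41 and 76 lies below every DMSO, Blk and compound 77 array.

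TFPI, the inhibitor of the tissue factor complex, was highest in WT8, where F3 was lowest. It read 617, 647 and 541 in WT8 and 438, 376 and 296 in PRC3. The WT8 arrays lay above all others among the 24, and the groups differed 1.64-fold (log2 change 0.72, SE 0.14, given without a test, and 0.79 without WT8 replicate 3). All 5 kept probe sets of TFPI were higher in WT8, with log2 changes from 0.34 to 0.95, and the arrays of the 2 groups overlapped in 3 of the 5. TFPI2 was bright in every group and overlapped between WT8 (1565, 2681 and 2355) and PRC3 (972, 2181 and 1913), a log2 change of 0.43 (SE 0.31), or 0.36 without WT8 replicate 3.

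Among the compounds TFPI was highest with 76 and lowest with 40. The compound 76 arrays read 461, 492 and 463, above the DMSO arrays at 370, 363 and 413. That 1.24-fold difference was not called (log2 change 0.31, SE 0.14, adjusted p = 0.443 by limma). Compounds 41 and 77 differed from DMSO by 0.12 and -0.10 on the log2 scale (adjusted p = 0.827 and 0.949 by limma). Compound 40 gave the lowest group mean, with 336, 259 and 328, a log2 change of -0.32 against DMSO and of -0.18 without its replicates 2 and 3. It lay below every compound 76 array, by 1.54-fold (log2 change -0.63, SE 0.14, no test). The next brightest TFPI probe set ran the other way with compound 40, with 349, 388 and 374 against 273, 321 and 276 in DMSO (log2 change 0.36, no test).

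TFPI2 was lower with compound 41 on every array. It read 567, 1172 and 833 with compound 41 and 1188, 1810 and 1382 in DMSO. No compound 41 array reached the lowest DMSO array, and the fold was 1.75 (log2 change -0.81, SE 0.31, adjusted p = 0.203 by limma, not called). In both groups replicate 2 was the brightest and replicate 1 the dimmest. The replicate numbers of these 2 groups deviate together across probe sets, and with the number as a block the SE was 0.15 and the adjusted p 0.00180 by limma. TFPI2 was thus called only with the block. Replicate 2 gave the brightest TFPI2 array in all 8 groups.

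Compound 41 also lay 1.85-fold below compound 76 for TFPI2 (log2 change -0.89, SE 0.31). This was not called without the block (adjusted p = 0.582 by limma) and was called with it (adjusted p = 0.00627). Compounds 76 (1316, 1790 and 1486) and 77 (1261, 1569 and 1277) overlapped DMSO, with log2 changes of 0.08 and -0.08. Compound 40 read 683, 1604 and 1069 and also overlapped DMSO. Its log2 change was -0.45 (SE 0.31), and -1.07 without replicates 2 and 3. The other kept TFPI2 probe set did not overlap here: it read 175, 263 and 296 with compound 40 and 390, 739 and 435 in DMSO, a log2 change of -1.07 (SE 0.31, no test). With compound 41 that probe set read 291, 330.0 and 203, also below all DMSO arrays, and was not called (log2 change -0.90, adjusted p = 0.155 by limma).

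Urokinase was highest with compound 77. PLAU read 283, 531 and 287 with compound 77 and 201, 212 and 151 in DMSO. Every compound 77 array lay above every DMSO array, by 1.89-fold, without being called (log2 change 0.92, SE 0.35, adjusted p = 0.48 by limma). The arrays of these 2 groups did not overlap in 14.3% of all genes tested. Compounds 40, 41 and 76 had lower group means than the vehicle. PLAU read 146, 153 and 97.4 with compound 40, 178, 178 and 61.4 with compound 41 and 108, 139 and 95.8 with compound 76. Compounds 40 and 41 overlapped DMSO, and compound 76 lay below it. The log2 changes of these compounds against DMSO were -0.52, -0.57 and -0.72. Neither of the 2 that were tested was called (adjusted p = 0.54 for compound 41 and 0.485 for compound 76 by limma). On the other PLAU probe set the means were 154 with compound 40, 126 with compound 41 and 111 with compound 76, beside 157 in DMSO.

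Set against each other, compounds 76 and 77 differed 3.11-fold in PLAU (log2 change -1.64, SE 0.35, adjusted p = 0.0273 by limma), and no arrays overlapped. The call rests on the full set of arrays. It held only when compound 77 replicate 1 was left out and was lost without any other 1 of the 6. The log2 change then ranged from -1.34 to -1.79 and the adjusted p reached 0.214. The other PLAU probe set gave -1.26 (adjusted p = 0.284 by limma). Compound 41 lay 2.81-fold below compound 77 and was not called (adjusted p = 0.0575 by limma). In PRC3 (187, 124 and 143) and WT8 (300.1, 180 and 171) PLAU overlapped, with a log2 change of 0.49, or 0.64 without WT8 replicate 3. For compound 40 against DMSO the PLAU log2 change was -0.34 without replicates 2 and 3.

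The urokinase receptor varied as much within groups as between them. PLAUR read 130, 267 and 162 in DMSO, 199, 551 and 348 with compound 77, 217, 298 and 200 with compound 41, and 116, 353 and 220 with compound 76. All of these groups overlapped. The largest tested log2 change against DMSO was 0.92 with compound 77 (SE 0.44, adjusted p = 0.639 by limma). Compound 40 (124, 310.1 and 201) overlapped DMSO, and its log2 change turned from 0.16 to -0.52 without replicates 2 and 3. WT8 (133, 178 and 231) overlapped PRC3 (113, 155 and 361), with a log2 change of -0.07, or -0.27 without WT8 replicate 3. Replicate 2 was the brightest PLAUR array in 6 of the 8 groups, all but PRC3 and WT8.

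PLAT was not measurable on these arrays. Its probe set read 20, the floor, on every array but pTR, where it read 33.6.

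SERPINA1 fell with compounds 41 and 76. It read 792, 788 and 719 in DMSO, 317, 386 and 337 with compound 41 and 279, 323 and 275 with compound 76. No array of either compound came near the lowest DMSO array. The fall was 2.21-fold with compound 41 (log2 change -1.15, SE 0.20, adjusted p = 0.00172 by limma). It was 2.63-fold with compound 76 (log2 change -1.39, SE 0.20, adjusted p = 2.37e-04 by limma). Both calls held in all 6 fits that left out 1 array of the 2 groups. Against the untreated arrays (1032, 823 and 763) the log2 changes were -1.32 (adjusted p = 3.04e-04) and -1.57 (adjusted p = 4.03e-05) by limma. Whether the choice of SERPINA1 also drew on the untreated arrays is not stated, so these values are not independent of it.

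Compound 40, whose difference chose SERPINA1, read 327, 404 and 309. That is 2.23-fold below DMSO (log2 change -1.15, SE 0.20, no test), and 2.35-fold on replicate 1 alone. Compound 77 read 641, 596 and 537. These lay below every DMSO array and above every array of the other 3 compounds. The difference from DMSO was not called (log2 change -0.38, SE 0.20, 95% interval -0.79 to 0.04, adjusted p = 0.712 by limma).

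In the order of SERPINA1 levels, Blk (873 ± 141, SD, n = 3) and DMSO (767 ± 40.8) came first. Compound 77 (592 ± 52.1), WT8 (577 ± 212) and PRC3 (517 ± 84.1) followed. Compounds 41 (347 ± 35.4), 40 (347 ± 50.5) and 76 (292 ± 26.9) came last. Arrays of neighbouring groups did not overlap between DMSO and compound 77 or between PRC3 and compound 41, and overlapped at every other step. SERPINA1 was 1.69-fold lower in PRC3 than in Blk, with no overlap, and was not called (log2 change -0.76, adjusted p = 0.0685 by limma). WT8 (759, 628 and 344) overlapped PRC3 (572, 420 and 559). Its lowest array was replicate 3, without which the log2 change moved from 0.10 to 0.43.

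The 3 pairs among compounds 41, 76 and 77 were compared for SERPINA1, each adjusted over all probe sets. Compounds 41 and 76 differed by 0.25 on the log2 scale, with a 95% interval from -0.17 to 0.66, so differences within that interval are not resolved here. Compound 76 was 2.02-fold lower than compound 77 (log2 change -1.02, SE 0.20, adjusted p = 0.0141 by limma). That call was lost without compound 76 replicates 1 or 3 or compound 77 replicates 1 or 2, each left out in turn, with an adjusted p of up to 0.0921. It was also lost with median scaling (adjusted p = 0.0686) and with no filter (adjusted p = 0.0717). Compound 41 was 1.71-fold lower than compound 77 and was not called (adjusted p = 0.106 by limma).

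Of the other SERPINA1 probe sets, the brighter gave larger differences in the same direction. Its log2 changes against DMSO were -1.57 with compound 41 and -1.73 with compound 76, both called, and -1.80 with compound 40. The dimmest kept probe set did not follow with compound 41, where it gave 0.050 (adjusted p = 0.983 by limma). It lay below every DMSO array with compound 76 (log2 change -0.50, adjusted p = 0.479 by limma, not called) and with compound 40 (-0.51, no test). The one that was not kept lay at the floor on all 26 arrays. Probe sets of 1 gene can target different transcript ends, and which of these transcripts the cells made was not tested.

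**Figure D2:**
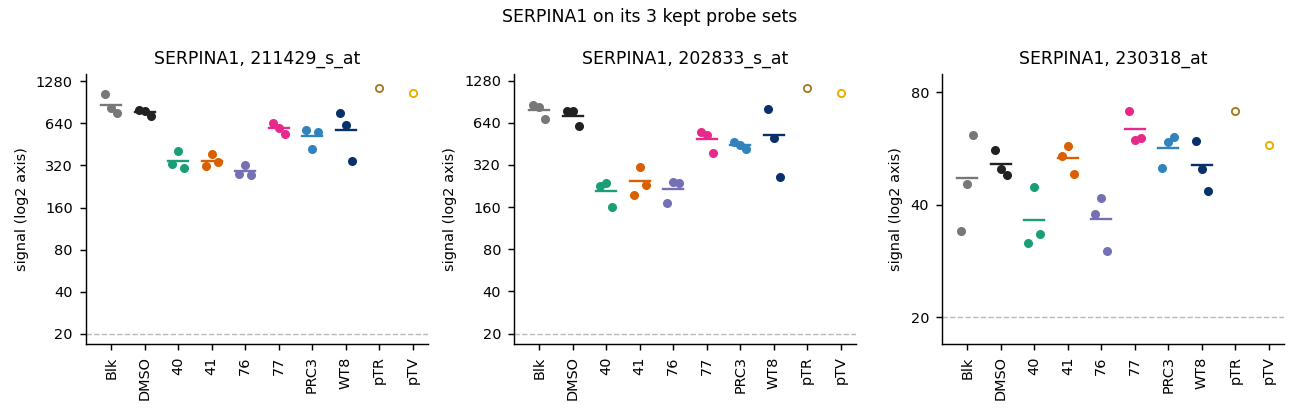
Normalized signal of the 3 kept SERPINA1 probe sets on each array, by group, on a log2 axis with the floor of 20 dashed; each point is 1 array and the bars are group means. In the left and middle panels the compound 40, 41 and 76 arrays lie below the DMSO arrays, whereas in the dim probe set of the right panel compound 41 and DMSO overlap.

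The thrombin receptors gave low signals. F2R read 20.1, 69.7 and 67.1 in DMSO and 20, 41.2 and 70.8 in Blk, so that each of these groups spanned most of the gene's range. With compound 41 it read 36.4, 70.4 and 74.2, with compound 76 it read 20, 28.5 and 25.8, and with compound 77 it read 28.8, 38.5 and 42.3. Compounds 41 and 76 did not overlap and were not called (log2 change 1.23, SE 0.43, adjusted p = 0.61 by limma). In WT8 it read 27.4, 20 and 34.3, below 45.6, 72.0 and 86.5 in PRC3, a log2 change of -1.31 (SE 0.43, no test), or -1.49 without WT8 replicate 3. Compound 40 read 21.7, 20 and 21.6, a log2 change of -1.11 against DMSO and of -1.07 without its replicates 2 and 3. The other kept F2R probe set gave 0.38 there, of opposite sign. The kept THBD probe set never exceeded 26.8 on any of the 24 arrays, and no order can be read from it. Of its probe sets that were not kept, 1 reached 33.6 on a single compound 76 array and the other lay at the floor throughout.

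The counts here are from the fit without the replicate block. Counted over the 8 measured members, compound 41 lowered 1 (SERPINA1) and raised none, where 1.63% of all genes tested were called lower and 1.71% higher. With the block, TFPI2 was called lower as well (adjusted p = 0.00180 by limma). The probe sets called with compound 41 then went from 889 to 1525 of 35013. The median log2 change was 0.02 over the members and 0.01 over all genes. Compound 76 also lowered SERPINA1 alone, with 0.76% of genes called lower, and its median over the members was -0.30 against 0.01 over all genes. Compound 77 gave 0 calls by limma, where 0.179% of genes were called. An unadjusted p under 0.05 was reached by 2 members and by 2672 of the 35013 probe sets kept. DMSO against Blk gave 0 calls by limma among the members and 0 among all genes (0% called). There, 0 members and 794 of the probe sets kept had an unadjusted p under 0.05. PRC3 against Blk gave 0 calls by limma among the members, where 1.39% of genes were called. Here 1 member and 3912 of the probe sets kept had an unadjusted p under 0.05. Between the compounds, 76 against 77 gave 2 lower members (PLAU and SERPINA1) with 0.192% of genes called lower. Compound 41 gave 0 calls by limma against 76 and against 77, where 0.152% and 0.661% of genes were called. In each, 3 members had an unadjusted p under 0.05, beside 1927 and 2961 of the probe sets kept. With the block, TFPI2 was called lower in 41 against 76 (adjusted p = 0.00627 by limma). The share of all genes called with the block was not counted for that pair.

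**Figure D3:**
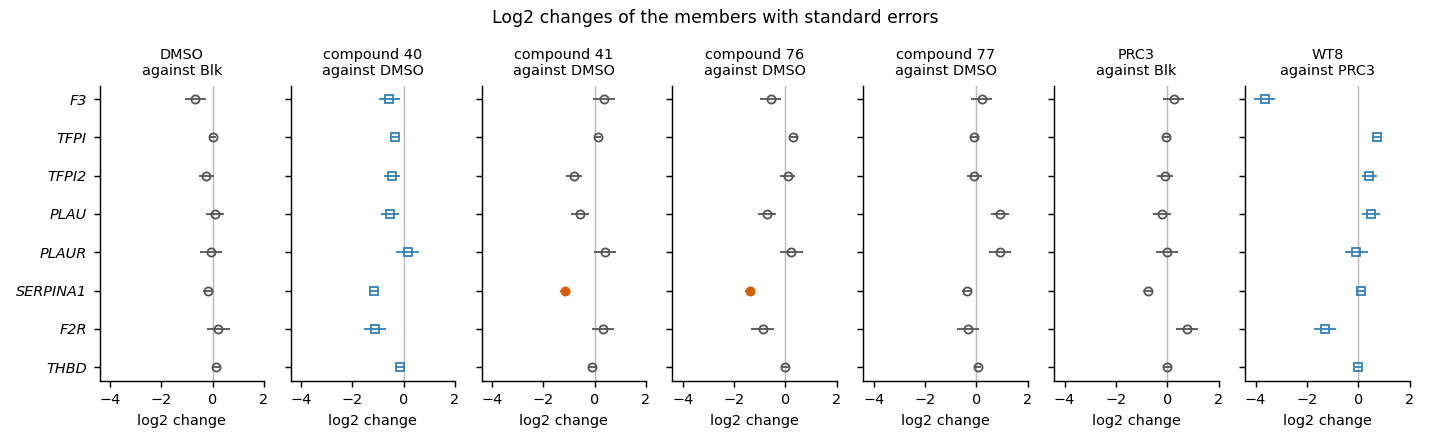
Log2 change of each measured member in each comparison, with its SE from the fit of 24 arrays; filled points mark differences called at an adjusted p under 0.05, open circles those not called, and squares the comparisons that chose the members, which carry no test. F3 at -3.64 in WT8 against PRC3 is the farthest from 0 among the values drawn. SERPINA1 is the called member with compounds 41 and 76 against DMSO in this fit, which has no replicate block.

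A list of 55 further genes of clotting and fibrinolysis was set beside the members. Of these, 51 had a single-gene probe set and 31 passed the filter. All 9 measured genes in the group of plasminogen and urokinase receptors and partners passed, but only 2 of 8 anticoagulants and inhibitors and 0 of 3 contact-system genes did.

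In that list, compound 41 raised 2 genes (F2RL2 and SERPINE2) and lowered 0, where 1.71% of all genes were called higher. Compound 76 raised 3 (F2RL2, SERPINE2 and SERPINI1) and lowered 0, with 1.02% called higher. No gene of the list was called by limma with compound 77, in DMSO against Blk or in PRC3 against Blk, with 3, 1 and 4 at an unadjusted p under 0.05. Over the 35013 probe sets kept, 2672, 794 and 3912 had such a p. The list's median log2 changes were 0.02 with both compounds 41 and 76, beside 0.01 over all genes for each.

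F2RL2 encodes PAR3, a thrombin receptor of the same family as F2R. It lay at the floor of 20 on all DMSO and Blk arrays. With compound 41 it read 48.5, 109 and 125 and with compound 76 it read 32.5, 95.6 and 94.4, so no array overlapped the vehicle. It was at least 4.36-fold higher with compound 41 (adjusted p = 8.28e-04 by limma, called in 6 of 6 fits with 1 array left out). It was at least 3.32-fold higher with compound 76 (adjusted p = 0.00804 by limma), a call lost without compound 76 replicate 2 or 3, at log2 changes of 1.47 and 1.48. With compound 77 it read 20, 33.6 and 22.9, and compound 41 exceeded compound 77 by 1.81 on the log2 scale (adjusted p = 0.0110 by limma), where 0.423% of genes were called higher. That call was kept in 2 of 6 fits with 1 array left out. It was lost without compound 41 replicates 2 or 3 or compound 77 replicates 1 or 3, with log2 changes from 1.55. It was also lost with no filter (adjusted p = 0.0541 by limma) and when only compounds 41, 76 and 77 were fitted (adjusted p = 0.243 by limma). A second F2RL2 probe set showed log2 changes of 0 with compound 41 and 0.29 with compound 76, so the rise rests on 1 of 2 probe sets.

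SERPINE2 encodes protease nexin-1, an inhibitor of thrombin, urokinase and plasmin. It read 267, 312 and 312 in DMSO, 448, 517 and 571 with compound 41 and 467, 518 and 541 with compound 76. All arrays of both compounds lay above all DMSO arrays. The rise was 1.72-fold with compound 41 (log2 change 0.78, adjusted p = 0.00612 by limma, called in 6 of 6 fits with 1 array left out). With compound 76 it was 1.71-fold (adjusted p = 0.00945 by limma), and the call was lost without DMSO replicate 1 (adjusted p = 0.0674) or compound 76 replicate 3 (adjusted p = 0.0661). SERPINI1, the neuroserpin gene, rose with compound 76 to a mean of 37.7 from 20.1 (log2 change 0.89, adjusted p = 0.0422 by limma). Of the 6 fits with 1 array left out, the call was kept only in the one without compound 76 replicate 3, and the adjusted p reached 0.192. It was also lost on the deposited signals (adjusted p = 0.100), with no filter (0.0704) and with log2 of signal plus 20 in place of the floor (log2 change 0.61, adjusted p = 0.372). When only the 2 groups compared were fitted, none of these F2RL2, SERPINE2 and SERPINI1 differences from DMSO was called by limma, with adjusted p from 0.0553 to 0.203.

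**Figure D4:**
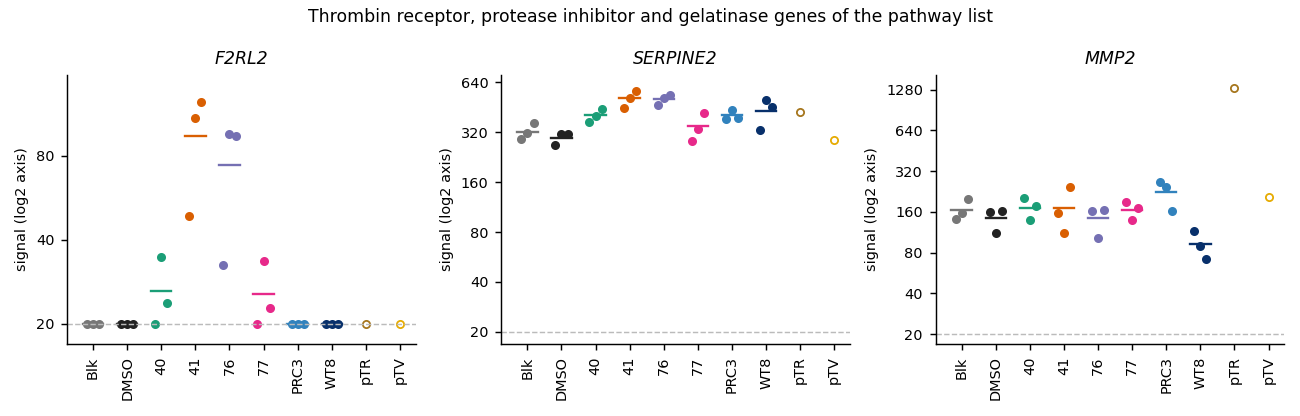
Normalized signal of F2RL2, SERPINE2 and MMP2 on each array, by group, on a log2 axis with the floor of 20 dashed; each point is 1 array (open for the single arrays) and the bars are group means. F2RL2 leaves the floor with compounds 41 and 76, and SERPINE2 is above every DMSO array with both, and MMP2 reaches 1324 in pTR.

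2 other genes of the list were singled out for their values in WT8, in the contrast that chose F3, so they carry no test. PROS1, which encodes the anticoagulant cofactor protein S, read 107, 124 and 134 in WT8 and 74.8, 68.2 and 39.9 in PRC3. MMP2, a matrix protease gene, had a mean of 92.1 in WT8 and 224 in PRC3. THBS1, a matrix glycoprotein gene, was singled out after its values were seen. Its mean was 896 with compound 41 and 213 in DMSO, with no overlap and no call (log2 change 2.26, SE 0.64, adjusted p = 0.0631 by limma).

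The single arrays pTR and pTV allow no test. F3 lay at the floor in pTR and at 302 in pTV, at least 15.1-fold apart. On the probe sets that stand for the genes, F3 was the 1 of 8 measured members that differed at least 2-fold, where 11.5% of all genes did. The other kept probe sets of TFPI2 (97.3 in pTR and 367 in pTV) and F2R (20 and 72.9) also differed more than 2-fold, and that of F2R ran opposite to the representative one. TFPI read 639 in pTR and 399 in pTV, and the pTR value is close to those of WT8. SERPINA1 read 1149 and 1054, both above every one of the 24 replicated arrays. TFPI2 read 592 and 755, near the bottom of its range over the 24 arrays (567 to 2681). MMP2 read 1324 in pTR and 204 in pTV, whereas the 24 arrays spanned 71.8 to 266.

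The genes most like F3 over the 8 group means were sought among 538 genes in the top 30% by mean signal whose group means spanned at least 1 on the log2 scale. They were AKT1 (Pearson r = 0.977), MYH9 (0.971), PRKAG2 (0.962), ADM (0.951) and SLC2A1 (0.950). Each has its lowest group mean in WT8, for example 7.14 for ADM on the log2 scale against 10.12 in PRC3. WT8 against PRC3 is also the contrast that chose F3, so this likeness is no independent result. The genes most like SERPINA1 among 537 candidates were SEMA3C (r = 0.942), LMNB1 (0.875), MT1H (0.862), FAM107B (0.857) and RASSF4 (0.848). SEMA3C, a secreted guidance protein gene, had group means of 9.85 in DMSO, 8.06 with compound 40, 8.56 with compound 41 and 8.58 with compound 76 on the log2 scale, and 9.58 with compound 77. These correlations describe 8 points that share a normalization and carry no test.

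**Figure D5:**
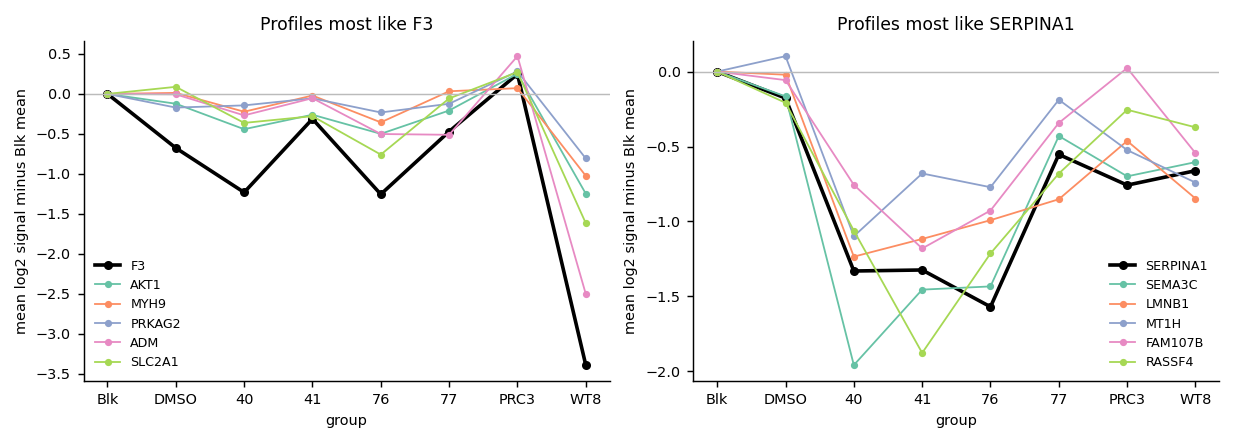
Group means of log2 signal minus the mean of the Blk arrays, for F3 and SERPINA1 and the 5 genes most like each; the lines join the values of 1 gene and carry no order. F3 and its 5 neighbours are all lowest in WT8, and SERPINA1 and SEMA3C are both low with compounds 40, 41 and 76.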

How the data were processed

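Per the labels' protocols, cRNA made from 786-O total RNA was hybridised to 26 Affymetrix U133 Plus 2.0 arrays. The authors deposited linear signal intensities per probe set, made with MAS5, per the submitters' processing notes. Its version, its scaling target and a genome build were not given in the sources used here. All 26 arrays were quantile normalized without 62 control probe sets, limited to the range 20 to 16000 and put on the log2 scale. A probe set was kept if 3 or more of the 24 arrays reached their own median signal in it. The 24 arrays of the 8 groups were fitted together with limma 3.58.1 (lmFit and eBayes with a trend) in R 4.3.3. The fit was tested on simulated data.

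The members and lists were chosen with earlier results of these data known. The text names all members, the genes of the fixed pathway list that were called, with arrays that do not overlap, in compounds 41, 76 and 77 against DMSO, DMSO or PRC3 against Blk, or the pairs of those 3 compounds, and the 5 genes most like F3 and SERPINA1; MMP2, PROS1 and THBS1 were added after their values were seen. Probe sets were named from the platform annotation, and symbols were checked against RefSeq.

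Same-numbered arrays were taken as paired where every correlation of their deviations from the group means was over 0.1. This held for compounds 41 and 76 against DMSO, DMSO against Blk, 41 against 76 and WT8 against PRC3. Alternatives were the deposited scale, median scaling, log2 of signal plus 20 without a floor, no filter, the replicate number as a block, the compared groups alone, other probe sets, Blk as the control and each array left out.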

Additional observations from a re-analysis of the deposited data

Results flagged for a closer look

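Differences between compounds flagged 3 values, each because the contrast of 2 compounds was called by limma. PLAU was lower with compound 76 than with compound 77 by a log2 change of -1.64, and SERPINA1 by -1.02. F2RL2 was higher with compound 41 than with compound 77 by a log2 change of 1.81. Each of these calls was lost in more than 1 of the fits that left out 1 array, as given with the results. The part of dose and time in these differences was not tested. No group had 4 or more arrays, so no array could be judged an outlier within its group.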

How the results depend on the processing

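With 3 arrays a group, signals near the floor of 20 (THBD, F2R, SERPINI1, F2RL2) have no order below it. Fold changes against groups at the floor are lower bounds. The SERPINA1 calls with compounds 41 and 76 held under every scaling, filter and left-out array tried, and the count of called members stayed at 1 for both in all left-out fits. Exceptions were the dim SERPINA1 probe set, which reversed to 0.050 with compound 41 and was not called with compound 76, and the replicate block, which gave 2 called members with compound 41. The second F2RL2 probe set reversed to -0.22 in compound 41 against compound 77. For compound 40 against DMSO the SERPINA1 log2 change was -1.80 in the brighter and -0.51 in the dimmer of its other kept probe sets, and -1.27 to -1.08 with 1 array left out. F3 in WT8 against PRC3 ranged from -4.23 to -3.32 in the same fits.

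Counts over all probe sets moved more. With compound 41 against DMSO, 889 were called, 513 with median scaling, 1525 with the replicate block, 374 with only the groups compared, and 419 to 685 with 1 array left out. With compound 76 the counts were 474, then 849 with the block, 126 with only the groups compared and 226 to 381 with 1 array left out. With compound 77 they were 60, then 27 with median scaling, 34 with no filter, 175 with the block, 0 with only the groups compared, 106 against Blk and 15 to 125 with 1 array left out. DMSO against Blk gave 0, then 3 with no filter and 0 to 2 with 1 array left out. PRC3 against Blk gave 362, then 186 with median scaling, 697 with the block, 0 with only the groups compared and 151 to 311 with 1 array left out. Its called members went from 0 to 1 with the block (SERPINA1, adjusted p = 0.0272 by limma). Among the 3 pairs of compounds, 2 member calls became 0 with median scaling, 0 with no filter, 6 with the block and 0 to 3 with 1 array left out. The smaller fits have fewer arrays. The cause of the other moves was not tested. Median scaling turned the split of higher against lower calls from 411 and 478 to 302 and 211 with compound 41, and from 262 and 212 to 212 and 111 with compound 76. Deposited signals turned it from 146 and 216 to 142 and 129 in PRC3 against Blk. In pairs whose replicate numbers did not pair the samples, the block is given here only.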
